A study of Mus musculus with 7 samples.

Results

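The Th2 cytokine locus is a stretch of mouse chromosome 11 that holds the genes Il4, Il13 and Il5, with Rad50 lying between Il13 and Il5 and Kif3a on the other side of Il4. All regions of the ATAC-seq table within a window of 0.25 Mb around these genes were taken, whatever their values, which gave 42 of the 113820 regions. In GRCm38/mm10 they run from chr11:53516772 to chr11:53737977. They cover 33753 bp and are numbered here R1 to R42 in order of their coordinates. ATAC-seq counts where a transposase inserts sequencing adapters, so a higher density of insertions stands for more open chromatin. The 7 libraries came from CD4+ T cells of C57BL/6 mice given 500 L3 larvae of the helminth Nippostrongylus brasiliensis under the skin 8 days before. The IL-4+ libraries, 2 from the mediastinal lymph node (LN) and 3 from the lung, hold GFP+ cells of IL-4-4get reporter mice, and the 2 IFNγ+ libraries hold YFP+ lung cells of IFN-gamma-Great reporter mice. Each library was made from 50000 cells, each replicate was described as a mouse of 1 experiment, and the age of the mice was not given in the sources used here. The 4get allele carries GFP behind an internal ribosome entry site at the 3′ end of Il4 itself, so both IL-4+ populations were chosen by transcription of a gene of this locus and carry an altered copy of it. In any comparison of IL-4+ with IFNγ+ cells at Il4, the sort, the allele and the cell population cannot be told apart. Both IL-4+ populations share the sort and the allele.

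Il4, Il13 and Il5 encode the signature cytokines of type-2 immunity, which drive IgE class switching, mucus production and eosinophilia. Their chromatin is known to open together when naive CD4+ T cells become Th2 cells, under GATA3 and STAT6, and hypersensitive sites in the second intron of Il4, between Il4 and Il13, downstream of Il4 and in the 3′ part of Rad50 act on it. The sites in Rad50, a gene for a DNA repair protein that all cells use, are called the Th2 locus control region, and Kif3a encodes a motor protein of intracellular transport. In lymph nodes much of the IL-4 made by CD4+ T cells comes from T follicular helper cells, which make little IL-13 or IL-5.

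Values are log2 densities, that is normalized insertions per kilobase of a region, and a region was called different where limma's adjusted p was under 0.05 and the fold change at least 3. Each library held 14005923 to 91681969 insertions as rebuilt from the table, of which 6501 to 19358 fell in the 42 regions. Lung IL-4+ replicate 1, LN IL-4+ replicate 2 and both IFNγ+ libraries had a wide spread of rebuilt insertions over all regions. The ratio between their upper and lower quartiles was 2.91 to 3.087 on the log2 scale. The other 3 libraries had a narrow spread, with a ratio of 1.667 to 1.751. The range of the called differences within these classes is therefore also given. Promoters of all 7 markers of CD4+ T cells had a density of at least 5 in every library. The promoter of Ifng, the gene that marks the YFP+ sort, had a density of 48.5 and 51.7 in IFNγ+ cells, 11.3 to 16.2 in lung IL-4+ cells and 2.54 to 3.51 in LN IL-4+ cells. Tbx21, the other Th1 marker listed, did not separate the populations. Its promoter had 5.22 and 5.39 in IFNγ+, 3.25 to 8.22 in lung IL-4+ and 2.59 to 7.96 in LN IL-4+ cells. Of the B cell markers, 1 of 4 had a promoter region, Pax5, with 35.3 to 37.4 in LN IL-4+, 7.7 to 21.8 in lung IL-4+ and 16.5 to 20.7 in IFNγ+ cells, taking the most open promoter region of a gene here and below. Of the 2 markers of T follicular helper cells, Cxcr5 had 12.1 to 19.6 in LN IL-4+, 3.79 to 8.6 in lung IL-4+ and 3.99 to 4.39 in IFNγ+ cells. Bcl6 had 48.4 to 51.5 in LN IL-4+ cells, and all 3 lung IL-4+ libraries, from 43.4 up, lay below the 61.8 and 64.9 of IFNγ+ cells. The sum of both in the same order of populations was 60.5 to 71.1, 52 to 57.3 and 65.8 to 69.3. Of the 2 markers listed for Th2 cells and type-2 innate lymphoid cells, Gata3 had 42.2 to 48.3 in LN IL-4+ cells. It had 44.2 to 51.2 in lung IL-4+ and 35.1 and 37.6 in IFNγ+ cells. Il1rl1 had 1.67 to 2.53 in LN IL-4+, 11.4 to 19 in lung IL-4+ and 5.85 and 7.17 in IFNγ+ cells. IFNγ+ cells had the highest values of Itgam, a myeloid gene, with 5.39 and 7.77 against 0.898 to 2.89 in IL-4+ libraries, and of Klrb1c, the 1 of 2 NK cell markers with a promoter region, with 5.49 and 7.66 against 2.34 to 4.9. The summed promoters were 10.9 to 13.8 in IFNγ+ against 6.05 to 10.6 in IL-4+ libraries for the 2 of 4 myeloid markers with a promoter region and 24.4 to 26.7 against 17.3 to 24.7 for the 2 of 3 epithelial markers with one. The members of these sums differed. Cd14, the other myeloid marker, overlapped, with 5.49 and 6.01 in IFNγ+ and 4.26 to 7.8 in IL-4+ libraries. Among epithelial markers, Epcam overlapped, with 9.23 and 9.47 against 8.79 to 12.5, and Cdh1 was 15.2 and 17.2 against 7.23 to 12.7. Cd8b1, the 1 of 2 CD8 markers with a promoter region, was 6.61 to 7.31 in LN IL-4+, 2.95 to 5.57 in lung IL-4+ and 3.94 to 4.09 in IFNγ+ cells. None of the 3 mast cell and basophil markers had a promoter region in the table. The part of other cell types in the results was not tested. In bulk samples, fewer cells with an open region and a less open region in each cell cannot be told apart.

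The sequences that follow are those of 8 windows on which the comparisons turn, taken from RefSeq GRCm38.p6. They are the 250 bases before the starts of Il4 and Il13 and before another annotated Il4 start inside intron 2, and the central 300 bases of 5 regions, where the deposited table gives only a region's ends and not its summit. Capitals mark the letters of a GATA motif (AGATAA) or a STAT6 motif (TTC and GAA with 4 bases between them) on either strand.
Il4 promoter, minus strand, chr11:53618666-53618915, within R18: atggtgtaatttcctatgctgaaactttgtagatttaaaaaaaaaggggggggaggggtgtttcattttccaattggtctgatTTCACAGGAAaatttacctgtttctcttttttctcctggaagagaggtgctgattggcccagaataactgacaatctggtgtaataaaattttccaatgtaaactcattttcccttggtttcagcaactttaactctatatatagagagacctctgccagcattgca
Il4 start in intron 2, minus strand, chr11:53617339-53617588, within R17: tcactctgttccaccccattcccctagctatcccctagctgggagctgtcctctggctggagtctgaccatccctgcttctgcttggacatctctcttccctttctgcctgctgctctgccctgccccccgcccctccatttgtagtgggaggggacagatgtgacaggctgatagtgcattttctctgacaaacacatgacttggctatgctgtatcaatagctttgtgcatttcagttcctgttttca
Il13 promoter, minus strand, chr11:53634703-53634952, mostly within R26: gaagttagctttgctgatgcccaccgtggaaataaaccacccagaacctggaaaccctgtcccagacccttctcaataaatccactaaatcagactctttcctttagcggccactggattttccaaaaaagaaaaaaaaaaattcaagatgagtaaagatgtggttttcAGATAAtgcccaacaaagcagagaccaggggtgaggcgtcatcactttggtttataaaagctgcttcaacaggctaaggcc
R10, downstream of Il4, plus strand, chr11:53605195-53605494: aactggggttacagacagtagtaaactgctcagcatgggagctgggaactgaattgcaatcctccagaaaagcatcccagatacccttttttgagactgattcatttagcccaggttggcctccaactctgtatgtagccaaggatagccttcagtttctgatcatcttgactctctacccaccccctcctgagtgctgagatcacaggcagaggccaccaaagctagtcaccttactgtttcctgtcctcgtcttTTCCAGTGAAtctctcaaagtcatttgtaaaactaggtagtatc
R22, between Il4 and Il13, plus strand, chr11:53627213-53627512: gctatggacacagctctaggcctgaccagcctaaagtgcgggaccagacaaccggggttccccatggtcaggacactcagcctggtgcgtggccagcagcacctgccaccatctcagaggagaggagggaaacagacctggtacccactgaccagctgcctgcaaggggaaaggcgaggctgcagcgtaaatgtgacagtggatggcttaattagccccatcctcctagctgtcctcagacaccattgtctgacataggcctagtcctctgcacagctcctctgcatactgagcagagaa
R31, in Rad50 intron 21, plus strand, chr11:53663046-53663345: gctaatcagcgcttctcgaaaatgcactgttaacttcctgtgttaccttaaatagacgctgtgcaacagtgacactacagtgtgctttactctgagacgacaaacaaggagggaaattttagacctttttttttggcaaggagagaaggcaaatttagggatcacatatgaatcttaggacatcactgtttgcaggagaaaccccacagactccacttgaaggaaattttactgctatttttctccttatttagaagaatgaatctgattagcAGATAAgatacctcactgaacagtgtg
R38, upstream of Il5, plus strand, chr11:53719734-53720033: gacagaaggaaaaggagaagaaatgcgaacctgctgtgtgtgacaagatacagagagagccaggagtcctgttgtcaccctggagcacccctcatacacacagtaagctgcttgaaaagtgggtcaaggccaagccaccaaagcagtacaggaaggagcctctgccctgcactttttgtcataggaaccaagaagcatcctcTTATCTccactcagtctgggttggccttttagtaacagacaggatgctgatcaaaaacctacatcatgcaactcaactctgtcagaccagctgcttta
R39, downstream of Il5, plus strand, chr11:53726660-53726959: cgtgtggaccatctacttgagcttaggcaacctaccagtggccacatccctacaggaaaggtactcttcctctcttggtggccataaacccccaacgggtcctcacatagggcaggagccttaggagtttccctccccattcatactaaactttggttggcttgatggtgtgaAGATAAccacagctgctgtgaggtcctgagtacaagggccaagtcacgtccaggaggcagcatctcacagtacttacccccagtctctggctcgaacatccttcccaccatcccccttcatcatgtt

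The Il4 promoter window held 1 STAT6 match and 4 matches of an NFAT motif (GGAAAA), of which 1 overlaps the STAT6 match, and the Il13 promoter window held 1 GATA, 1 NFAT and 1 Runx (ACCACA) match. Over the central 300 bases of each region, 10 of the 42 regions (23.8%) held a GATA match, against 15.2% of all 113820 regions. A STAT6 match was found in 4 of 42 (9.52%, against 8.13% of all regions), an NFAT match in 11 (26.2% against 23.5%), an AP-1 match (TGANTCA) in 5 (11.9% against 13%), a Runx match in 10 (23.8% against 27.5%) and a T-box match (AGGTGTGA) in 1 (2.38% against 1.68%). GATA matches lay in R31 to R33, R38, R39 and R40 on the Rad50 and Il5 side, in R13, R15 and R26 at Il4 and Il13, and in R1. The windows of R17 and R22, 2 of the regions with the clearest differences between IL-4+ and IFNγ+ cells, held none of the 6 motifs. A match is a stretch of letters and not a measured binding site.

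The locus was most open in lung IL-4+ cells. A mean density of at least 5 was reached by 35 of the 42 regions in lung IL-4+ cells, by 20 in LN IL-4+ cells and by 17 in IFNγ+ cells. It was reached in at least 1 population by 35 of the 42 and by 58.2% of all regions. For single populations the share over all regions was not taken. Normalized insertions summed over the 42 regions were 338 and 259 in the LN IL-4+ libraries, 356, 451 and 446 in the lung IL-4+ libraries and 194 and 208 in the IFNγ+ libraries. On the log2 scale the sum was 8.70 ± 0.19 (SD, n = 3) for lung IL-4+, 8.21 ± 0.27 (SD, n = 2) for LN IL-4+ and 7.65 ± 0.07 (SD, n = 2) for IFNγ+ cells, and no 2 populations overlapped, although the highest LN IL-4+ library and lung IL-4+ replicate 1 lay close together. The 3 populations also distributed their insertions differently along the locus. In lung IL-4+ cells R31 in Rad50 intron 21 was the most open region, with a mean density of 38.7, above that of 96.1% of all regions in the table. In LN IL-4+ and IFNγ+ cells it was the Rad50 promoter, R33, with 24.7 and 21.7.

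**Figure D1:**
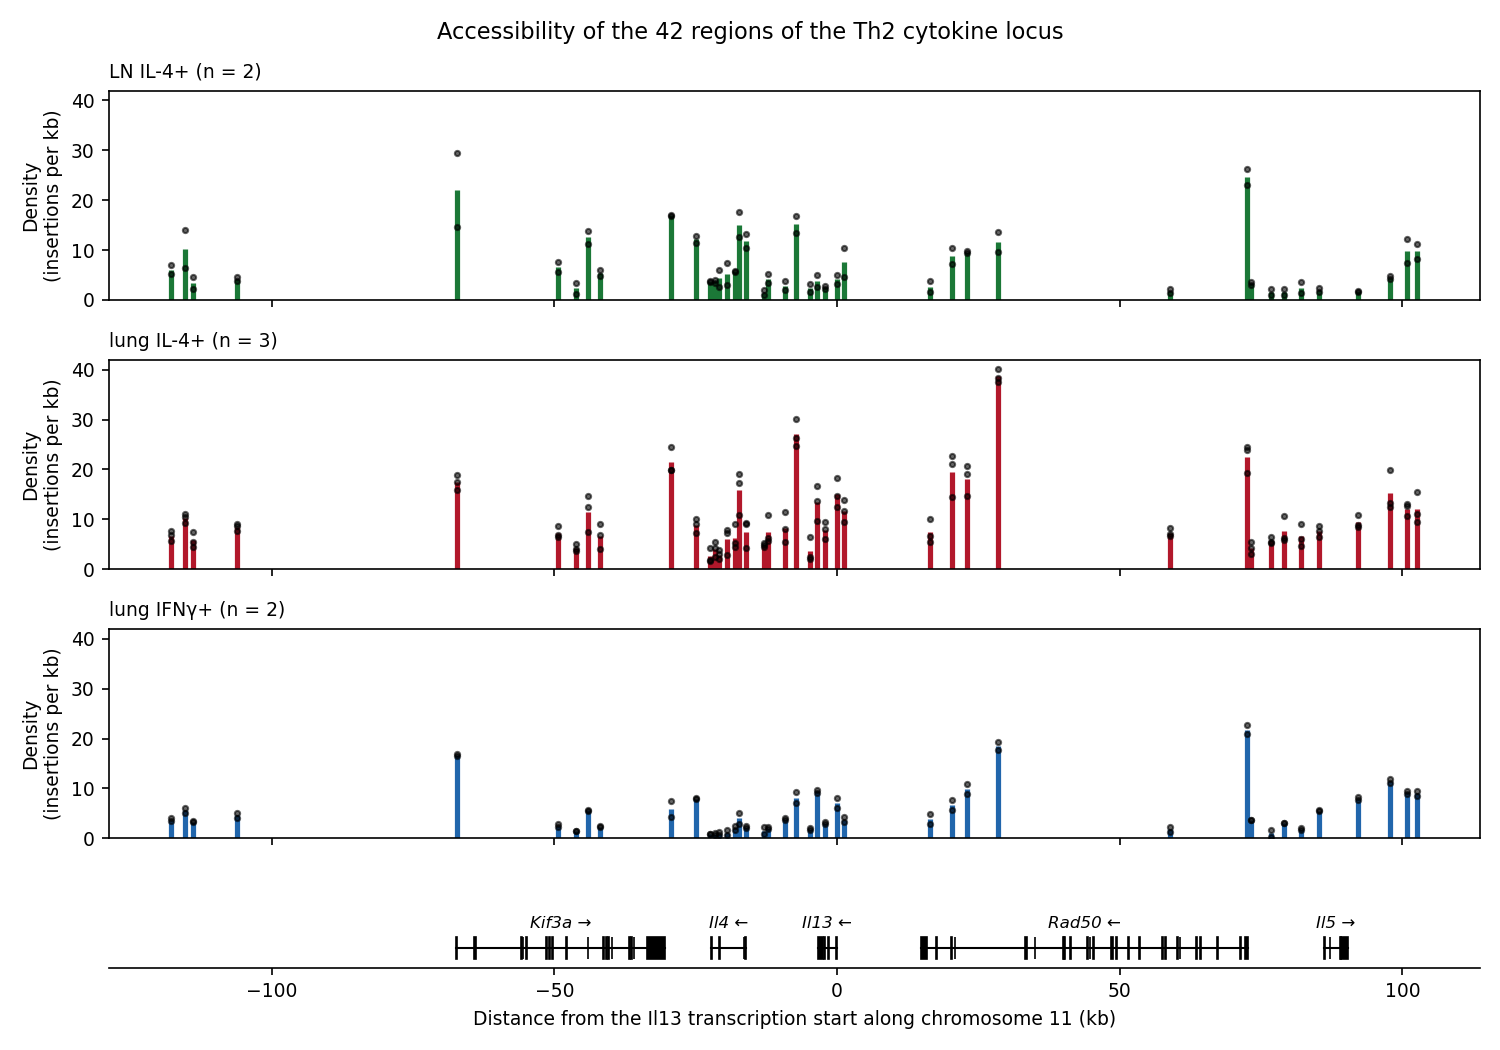
Density of transposase insertions (normalized insertions per kb, linear scale) at each of the 42 regions in each of the 3 populations, against distance along chromosome 11 from the Il13 transcription start, with exons of the 5 genes drawn below and arrows for their direction. Bars are population means and points are libraries; lung IL-4+ cells reach 38.7 at R31 in Rad50, where LN IL-4+ cells have 11.7 and IFNγ+ cells 18.5.

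At the main starts of the housekeeping neighbours Rad50 and Kif3a no difference was called. R33 (chr11:53706705-53707557), over exon 1 and the start of Rad50, was 4.71 and 4.53 in the LN IL-4+ libraries, 4.58, 4.27 and 4.61 in the lung IL-4+ libraries and 4.5 and 4.38 in the IFNγ+ libraries. The estimated differences at R33 were 0.05, -0.14 and 0.18 for lung IL-4+ over IFNγ+, lung IL-4+ over LN IL-4+ and LN IL-4+ over IFNγ+, each with an SE of 0.19 to 0.21. R5 (chr11:53567149-53567948), over exon 1 of Kif3a, was 4.88 and 3.87 in LN IL-4+, 4.12, 3.99 and 4.24 in lung IL-4+ and 4.08 and 4.04 in IFNγ+ cells, and its differences of 0.06, -0.26 and 0.31 were of the size of their SE of 0.28 to 0.3. R34, just upstream of the Rad50 start, was between 1.59 and 2.46 in all 7 libraries. R9 (chr11:53592426-53593130), in Kif3a intron 10 and near the start of another annotated Kif3a transcript, was 2.03, 2.77 and 3.17 in lung IL-4+, 2.28 and 2.6 in LN IL-4+ and 1.28 and 1.14 in IFNγ+ libraries, so that the IL-4+ libraries of both tissues lay above IFNγ+ cells without overlap. Its differences from IFNγ+ cells were 1.45 ± 0.40 in the lung (adjusted p = 0.15, limma) and 1.23 ± 0.44 in the LN (adjusted p = 0.16, limma) and did not pass the test. The neighbouring regions R7 and R8, inside Kif3a, were 1.84 to 3.87 in lung IL-4+, 0.35 to 3.79 in LN IL-4+ and 0.49 to 2.5 in IFNγ+ libraries.

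Lung IL-4+ and lung IFNγ+ cells were compared to ask how the locus differs between cells that transcribe Il4 and cells that transcribe Ifng in the same tissue. All 42 regions had a higher mean in lung IL-4+ cells, where 49.7% of all regions did so, with a median log2 fold change of 1.16 against -0.01 over all regions. Among libraries of wide spread only, lung IL-4+ replicate 1 differed from IFNγ+ cells by -0.16 at R11 and -0.3 at R34. For the log2 locus sum that difference was 0.82. In 35 of the 42 regions every lung IL-4+ library lay above both IFNγ+ libraries, where 19.4% of all regions did so, and in 0 regions did the IFNγ+ libraries lie above, where 21.2% of all regions did so. By limma's test with Benjamini-Hochberg adjustment over all regions, 3 of the 42 were called higher in lung IL-4+ cells, where 0.108% of all regions were called, and 0 were called higher in IFNγ+ cells, where 0.387% were. At an unadjusted p under 0.05 with the same fold, 13 were higher in lung IL-4+ cells and 0 were lower. The share of all regions at this unadjusted limit was not taken, so the 13 have no background to be read against. The 3 called regions were R10, R17 and R22, at known types of Il4 control element: downstream of the gene, in its second intron and between Il4 and Il13.

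R22 (chr11:53626465-53628259), in the gap between Il4 and Il13, was 4.63, 4.91 and 4.72 in the lung IL-4+ libraries and 2.81 and 3.2 in the IFNγ+ libraries, with 4.08 and 3.74 in the LN IL-4+ libraries. The populations did not overlap and lay in the order lung IL-4+, LN IL-4+, IFNγ+. The difference between the lung populations was 1.75 ± 0.22 (SE), a 3.35-fold change, with an adjusted p of 0.0158 by limma, and LN IL-4+ cells differed from either by less than the fold threshold (0.84 ± 0.22 below lung IL-4+, adjusted p = 0.0765, and 0.91 ± 0.24 above IFNγ+, adjusted p = 0.0688, limma).

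The other regions of the gap, R19 to R21 and R23, were not called and lay between 1 and 3.51 in lung IL-4+, -0.06 and 2.38 in LN IL-4+ and -0.31 and 2 in IFNγ+ libraries.

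R10 (chr11:53604629-53606059) lies between the ends of Kif3a and Il4, beyond the last exon of both. It was 4.32, 4.61 and 4.31 in lung IL-4+, 4.09 and 4.08 in LN IL-4+ and 2.08 and 2.9 in IFNγ+ libraries. Both IL-4+ populations were higher than IFNγ+ cells, by 1.92 ± 0.27 (adjusted p = 0.02, limma) in the lung and 1.60 ± 0.29 (adjusted p = 0.0149, limma) in the LN, while lung IL-4+ differed from LN IL-4+ cells by 0.32 ± 0.27. Its neighbour R11, closer to the Il4 end, was open in all 3 populations, with 2.84 to 3.33 in lung IL-4+, 3.52 and 3.68 in LN IL-4+ and 3.03 and 2.96 in IFNγ+ cells. R12, closer still to the Il4 end, was 0.69 to 2.11 in lung IL-4+, 1.86 and 1.93 in LN IL-4+ and -0.31 and -0.25 in IFNγ+ libraries and was not called.

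R17 (chr11:53616846-53618000), in Il4 intron 2, showed the same order. It was 3.45, 4.26 and 4.11 in lung IL-4+, 4.14 and 3.65 in LN IL-4+ and 1.55 and 2.33 in IFNγ+ libraries. The 2 IL-4+ populations overlapped, with a difference of 0.05 ± 0.34, and both were higher than IFNγ+ cells, by 2.00 ± 0.34 in the lung (adjusted p = 0.0351, limma) and by 1.95 ± 0.37 in the LN (adjusted p = 0.0169, limma).

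R18 (chr11:53618058-53619204) holds the Il4 promoter and its first 2 exons. It was 3.72 and 3.37 in LN IL-4+, 2.08, 3.18 and 3.2 in lung IL-4+ and 0.98 and 1.28 in IFNγ+ libraries. LN IL-4+ cells were 5.35-fold higher than IFNγ+ cells (2.42 ± 0.43, adjusted p = 0.0131, limma). Lung IL-4+ cells were 1.70 ± 0.39 above IFNγ+ cells without passing the test (adjusted p = 0.0915, limma). Lung replicate 1, at 2.08, was the lowest of the 5 IL-4+ libraries. Without it that difference was 2.07 and was called, and without lung replicate 2 or 3 it was 1.51 and was not. The difference was called in 2 of 16 alternative fits. The LN IL-4+ libraries were the 2 highest at this promoter, 0.72 ± 0.39 above lung IL-4+ cells (adjusted p = 0.412, limma).

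The other 4 regions of the Il4 gene, R13 to R16, were low in IFNγ+ cells, between -0.84 and 1.33, and between 1 and 3.18 in the IL-4+ libraries. None of them was called. IL-4+ and IFNγ+ libraries did not overlap at any of the 6 regions of the gene. Of all regions, 19.4% lay above IFNγ+ cells without overlap in lung IL-4+ and 27.2% in LN IL-4+ cells. The share that did so in both tissues was not taken. Summed over the gene, normalized insertions were 57.7 and 37.3 in LN IL-4+, 27.2, 55.2 and 52.6 in lung IL-4+ and 8.3 and 13.9 in IFNγ+ libraries. The IFNγ+ libraries thus lay below all 5 others, while the IL-4+ libraries of the 2 tissues overlapped, with lung replicate 1 the lowest. The share of the locus's insertions that fell in Il4 was 14.4% to 17.1% in LN IL-4+, 7.66% to 12.3% in lung IL-4+ and 4.28% to 6.68% in IFNγ+ cells.

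LN IL-4+ and lung IFNγ+ cells differ in tissue, in how the tissue was dissociated and in sort, and these cannot be told apart in this comparison. LN IL-4+ cells were called higher at 3 of 42 regions (0.862% of all regions were), namely R10, R17 and R18 on the Il4 side, and IFNγ+ cells at 1 of 42 (2.17% of all regions were), R39 downstream of Il5. The libraries did not overlap at 18 regions with LN IL-4+ higher, where 27.2% of all regions did so, and at 8 with IFNγ+ higher, where 26.5% of all regions did so. The mean was higher in LN IL-4+ cells at 2 of the 4 regions R1 to R4, at all 14 from R5 to R18, Kif3a to the Il4 promoter, at 4 of 5 from R19 to R23 and at 8 of 19 from R24 to R42, the end of Il13 to beyond Il5, against 51.5% of all regions. These stretches were set after the values were seen. On the Rad50 side R27 and R33 were among the regions without overlap where LN IL-4+ cells were higher.

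**Figure D2:**
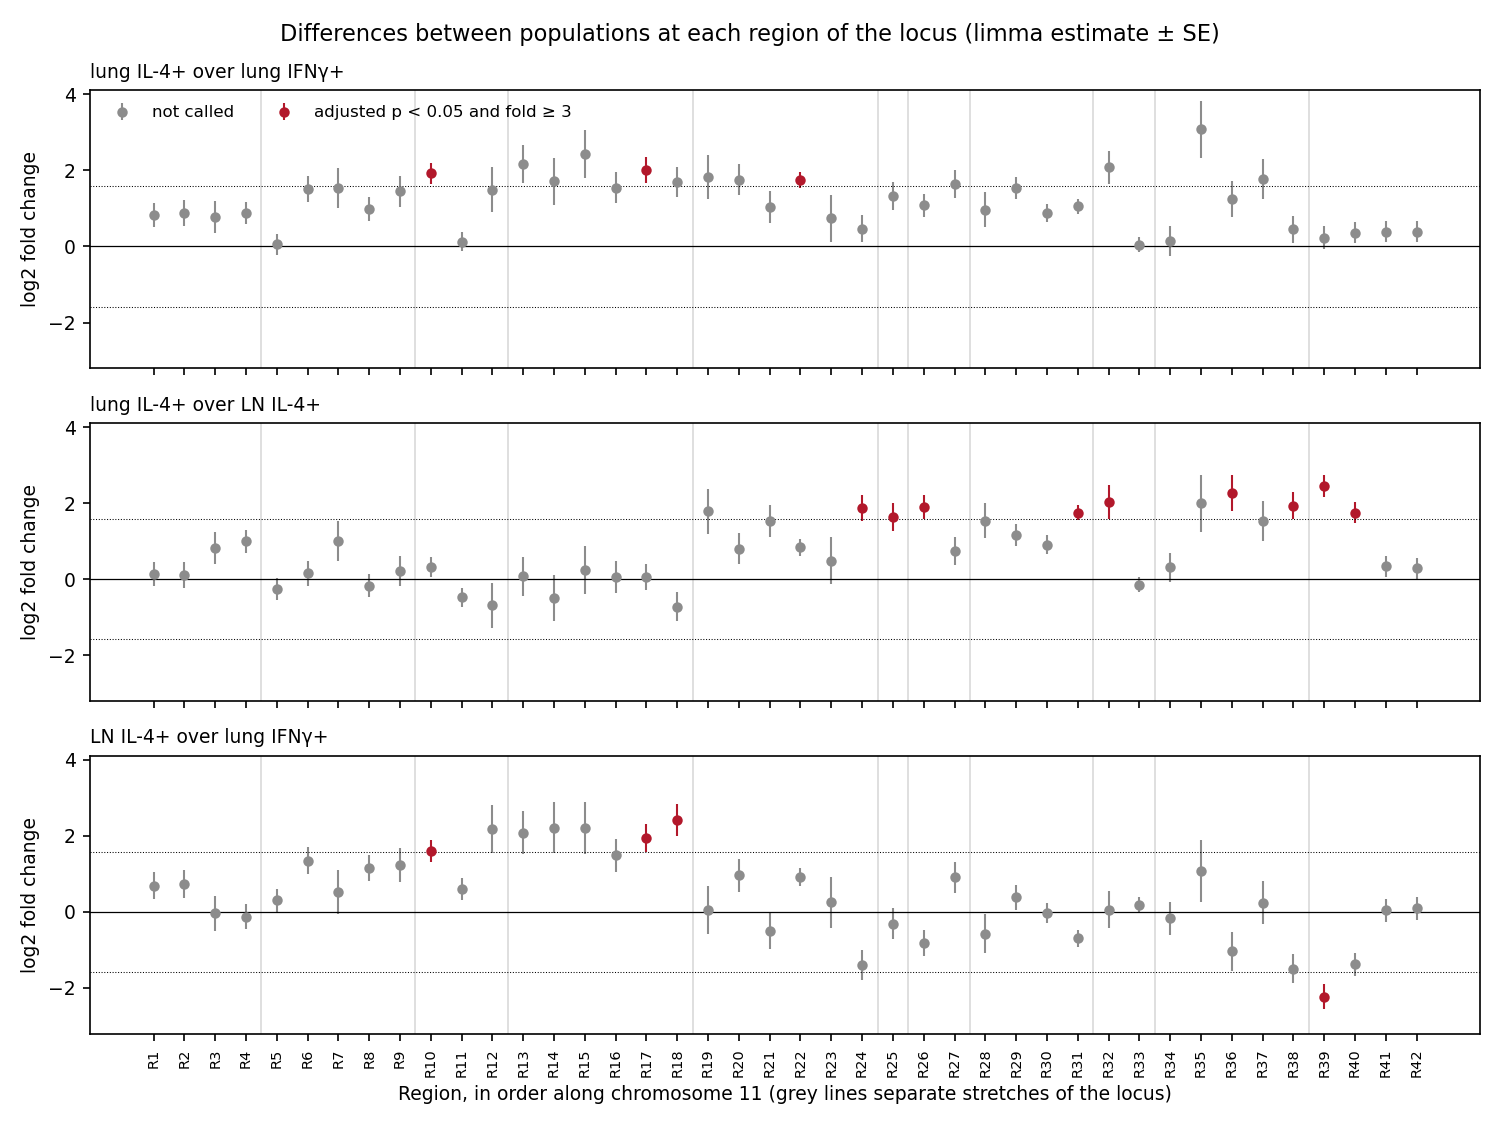
Log2 fold change of density, as limma's estimate ± SE, for each of the 42 regions in order along the chromosome, for lung IL-4+ over lung IFNγ+, lung IL-4+ over LN IL-4+ and LN IL-4+ over lung IFNγ+ cells. Red points passed an adjusted p of 0.05 and a fold of 3 (dotted lines); the 3 regions called in the top panel lie between R10 and R22 and the 9 called in the middle panel between R24 and R40.

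Lung and LN IL-4+ cells carry the same reporter and passed the same sort, so their comparison is among cells that transcribe Il4. Per the study's methods, lungs were digested with enzymes and lymph nodes were dissociated mechanically. Tissue and the way it was dissociated therefore cannot be told apart here. Lung IL-4+ cells were called higher at 9 of 42 regions, where 1.05% of all regions were called, and LN IL-4+ cells at 0, where 0.695% were. At an unadjusted p under 0.05 with the same fold, 11 were higher in lung IL-4+ cells and 0 were lower. Here too the share of all regions at this limit was not taken. None of the 9 lay in Kif3a, downstream of Il4 or in Il4. All lay between the last exon of Il13 and the stretch beyond Il5. Lung libraries lay above both LN libraries without overlap at 21 regions (13.6% of all regions did so) and below them at 2, R11 and R18 (14.3% of all regions did so). The median log2 fold change was 0.76 over the 42 regions and -0.03 over all regions.

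At Il13, 3 regions were called. R26 (chr11:53634509-53634934), over exon 1 and the promoter, was 4.19, 3.87 and 3.63 in lung IL-4+, 1.65 and 2.34 in LN IL-4+ and 2.62 and 3.01 in IFNγ+ libraries. Lung IL-4+ cells were 3.73-fold higher than LN IL-4+ cells (1.90 ± 0.31, adjusted p = 0.0123, limma), and their difference of 1.08 ± 0.31 from IFNγ+ cells did not pass the test (adjusted p = 0.164, limma). The 3 populations did not overlap, and LN IL-4+ cells were the lowest.

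R24 (chr11:53630870-53631529), at the 3′ end of Il13 exon 4, was 3.28, 3.78 and 4.06 in lung IL-4+, 2.34 and 1.33 in LN IL-4+ and 3.18 and 3.29 in IFNγ+ libraries, a difference between lung and LN IL-4+ cells of 1.87 ± 0.35 (adjusted p = 0.0221, limma). IFNγ+ cells overlapped lung IL-4+ cells here. R25 (chr11:53632297-53632772), around Il13 exon 3, was 2.59, 3.25 and 3.02 in lung IL-4+, 1.53 and 1.09 in LN IL-4+ and 1.73 and 1.52 in IFNγ+ libraries, with a difference of 1.64 ± 0.37 between lung and LN IL-4+ cells (adjusted p = 0.0419, limma). R27, just upstream of the Il13 promoter, was not called, with 3.24, 3.55 and 3.79 in lung IL-4+, 3.38 and 2.22 in LN IL-4+ and 1.68 and 2.09 in IFNγ+ libraries.

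The 3′ part of Rad50, from its middle to its end, is where the locus control region lies. It held 4 regions, R28 to R31, and lung IL-4+ cells had the highest values at each. R31 (chr11:53662808-53663583), in intron 21, was 5.26, 5.33 and 5.23 in lung IL-4+, 3.27 and 3.77 in LN IL-4+ and 4.27 and 4.15 in IFNγ+ libraries. It had the smallest spread of the called regions among lung IL-4+ libraries (SD 0.05, n = 3), and the populations lay in the order lung IL-4+, IFNγ+, LN IL-4+ without overlap. Lung IL-4+ cells were 3.37-fold higher than LN IL-4+ cells (1.75 ± 0.20, adjusted p = 0.00373, limma). Against IFNγ+ cells the difference was 1.06 ± 0.20, which passed the p threshold (adjusted p = 0.0479, limma) but not the fold threshold.

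R29 (chr11:53654600-53655500), around Rad50 exon 23, was 3.85, 4.5 and 4.4 in lung IL-4+, 3.37 and 2.83 in LN IL-4+ and 2.5 and 2.94 in IFNγ+ libraries. Its difference between the lung populations was 1.53 ± 0.29, a 2.89-fold change just short of the fold threshold (adjusted p = 0.049, limma), and between lung and LN IL-4+ cells 1.15 ± 0.29 (adjusted p = 0.0644, limma). LN IL-4+ and IFNγ+ cells overlapped at R29, as they did at R28 in intron 24 and R30 in intron 21. Summed over the 4 regions, normalized insertions were 73.1, 87.7 and 87.7 in lung IL-4+, 34.2 and 35.8 in LN IL-4+ and 40.5 and 38.4 in IFNγ+ libraries. The sum in lung IL-4+ cells was therefore 2.36-fold that in LN IL-4+ and 2.09-fold that in IFNγ+ cells, with no overlap. As a share of the locus, the 3′ part of Rad50 held 10.1% to 13.8% in LN IL-4+, 19.5% to 20.6% in lung IL-4+ and 18.4% to 20.9% in IFNγ+ cells, so by this measure the 2 lung populations overlapped and the LN libraries lay below.

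**Figure D3:**
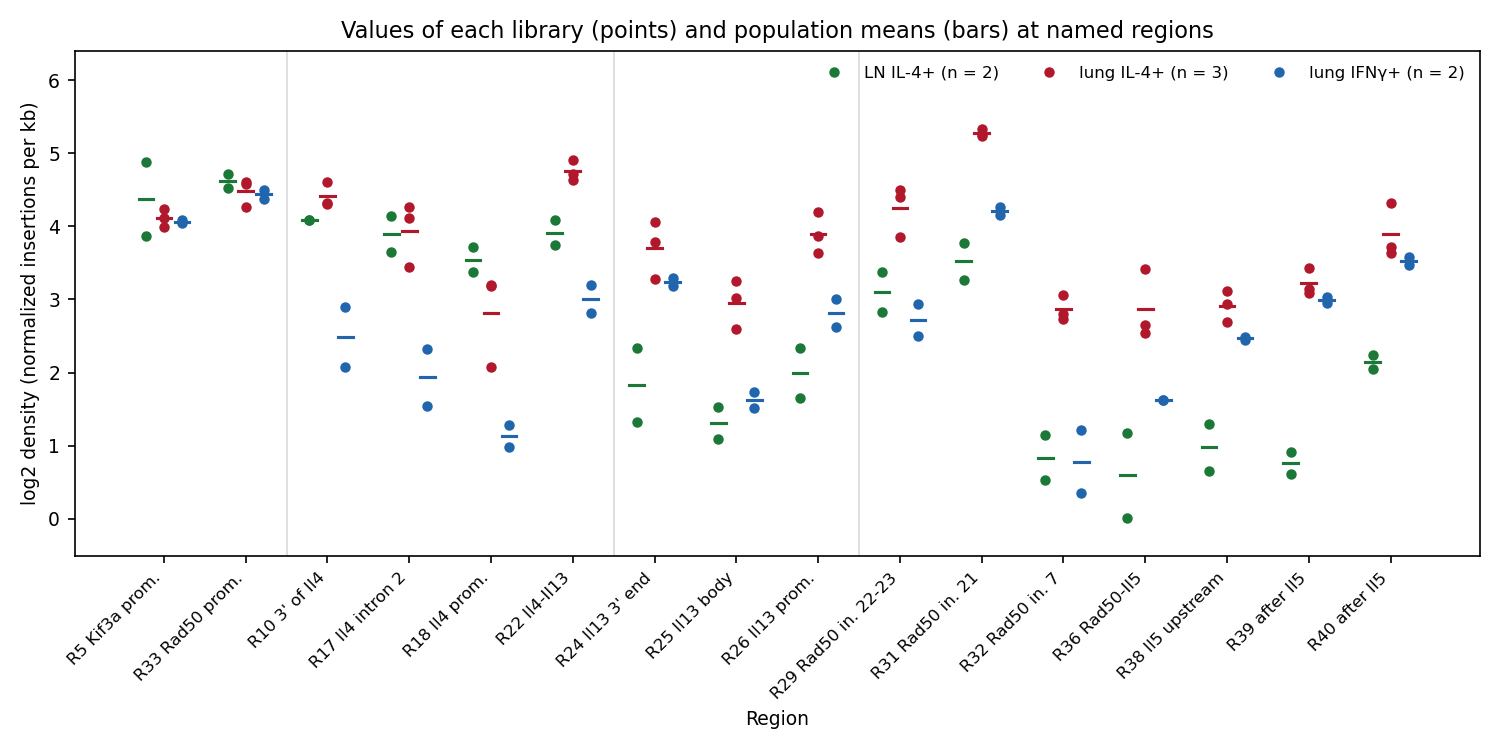
Log2 density (normalized insertions per kb) of every library at 16 regions, grouped by grey lines into promoters of Kif3a and Rad50, the Il4 side, Il13, and Rad50 to Il5. Points are libraries and short bars population means; at R17 in Il4 intron 2 the IL-4+ populations overlap above IFNγ+ cells, and at R39 the lung populations lie at 2.95 to 3.43, above the LN IL-4+ libraries at 0.62 and 0.91.

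In the 5′ part of Rad50, R32 (chr11:53693314-53693714) in intron 7 was 2.74, 3.06 and 2.8 in lung IL-4+, 0.53 and 1.15 in LN IL-4+ and 0.36 and 1.21 in IFNγ+ libraries. Lung IL-4+ cells were higher than LN IL-4+ cells by 2.03 ± 0.44 (adjusted p = 0.0371, limma) and lay 2.08 ± 0.44 above IFNγ+ cells (adjusted p = 0.0689, limma), while the other 2 populations overlapped. Its window held 2 GATA matches. R36 (chr11:53713605-53714005), between Rad50 and Il5, was 3.41, 2.65 and 2.54 in lung IL-4+, 0.01 and 1.18 in LN IL-4+ and 1.62 and 1.63 in IFNγ+ libraries, with a difference of 2.27 ± 0.47 between lung and LN IL-4+ cells (adjusted p = 0.0301, limma). Beside it, R35 and R37 were not called, with 2.19 to 3.18 in lung IL-4+, -0.12 to 1.86 in LN IL-4+ and -1.83 to 1.11 in IFNγ+ libraries.

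No region of the table lay inside Il5, the gene for the cytokine that supports eosinophils. At the nearest regions on both sides, all 5 lung libraries, IL-4+ and IFNγ+, lay above both LN libraries. R38 (chr11:53719652-53720114), which ends within 1 kb upstream of the Il5 start, was 3.11, 2.94 and 2.69 in lung IL-4+, 2.45 and 2.49 in IFNγ+ and 0.66 and 1.3 in LN IL-4+ libraries. Lung IL-4+ cells were higher than LN IL-4+ cells by 1.93 ± 0.35 (adjusted p = 0.0178, limma), and IFNγ+ cells lay 1.49 ± 0.38 above LN IL-4+ cells (adjusted p = 0.0572, limma).

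R39 (chr11:53726580-53727038), beyond the 3′ end of Il5, gave the largest difference between lung and LN IL-4+ cells among the 42 regions. It was 3.09, 3.43 and 3.14 in lung IL-4+, 2.95 and 3.04 in IFNγ+ and 0.62 and 0.91 in LN IL-4+ libraries. The fold change was 5.48 between lung and LN IL-4+ cells (2.45 ± 0.30, adjusted p = 0.00451, limma) and 4.69 between IFNγ+ and LN IL-4+ cells (2.23 ± 0.33, adjusted p = 0.00621, limma), and the 2 lung populations differed by 0.23 ± 0.30. The 2 fold changes share the LN libraries and are not independent. R40 (chr11:53732262-53732706) followed the same order, with 3.72, 4.32 and 3.63 in lung IL-4+, 3.58 and 3.47 in IFNγ+ and 2.24 and 2.05 in LN IL-4+ libraries. Its difference was 1.75 ± 0.27 between lung and LN IL-4+ cells (adjusted p = 0.0108, limma) and 1.38 ± 0.30 between IFNγ+ and LN IL-4+ cells (adjusted p = 0.0305, limma, under the fold threshold). At R41 and R42, farther out, all libraries lay between 2.87 and 3.95 and no difference exceeded 0.39.

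**Figure D4:**
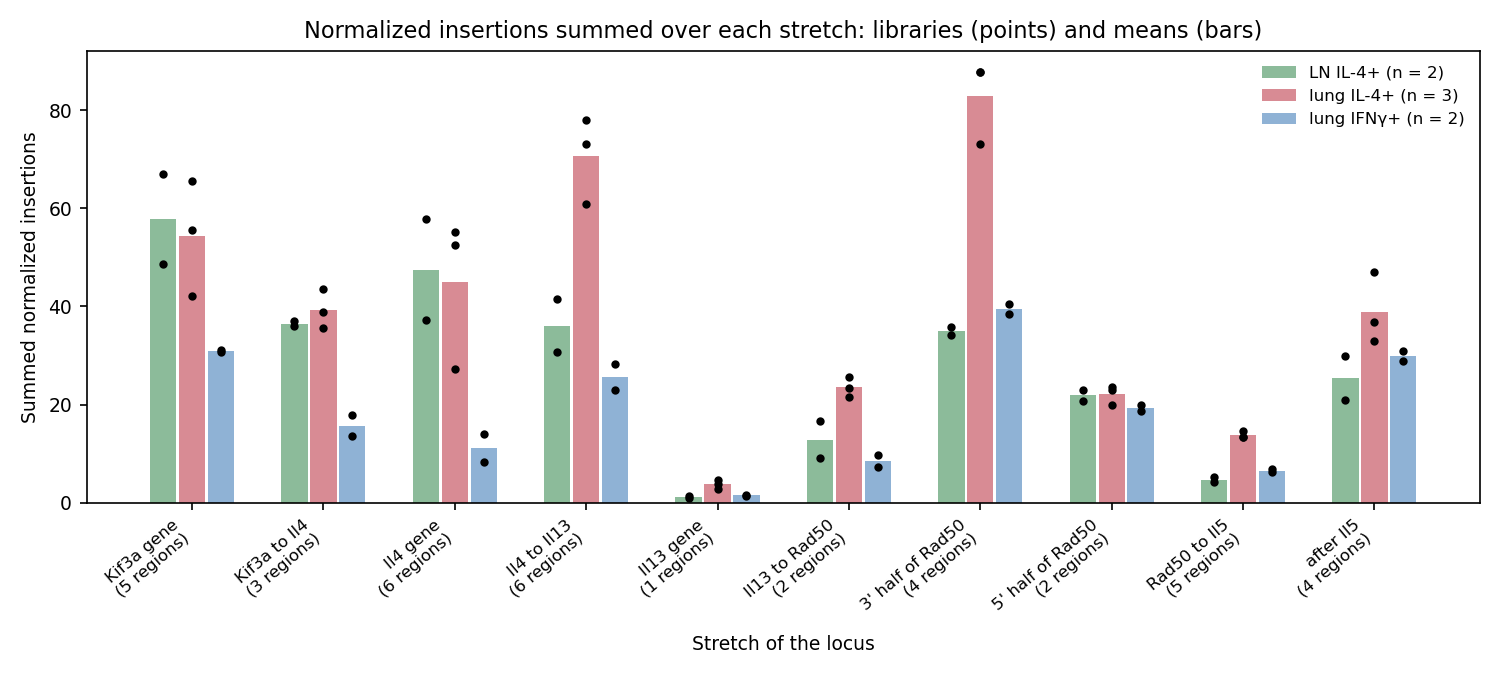
Normalized insertions summed over the regions of each stretch of the locus, with a region placed by its midpoint, in the 3 populations. Bars are means and points are libraries; over the Il4 gene the IL-4+ libraries of both tissues lie at 27.2 to 57.7 above the IFNγ+ libraries at 8.3 and 13.9, and over the 3′ part of Rad50 the lung IL-4+ libraries lie at 73.1 to 87.7 above all others.

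The sums show the Il4 side, the gap between Il4 and Il13 and the Il13 to Il5 side of the locus next to each other. From the end of Kif3a to the Il4 promoter, 9 regions summed to 93.6 and 74.3 in LN IL-4+, 62.7, 98.7 and 91.5 in lung IL-4+ and 21.8 and 31.8 in IFNγ+ libraries. The IL-4+ populations overlapped there, and both lay above IFNγ+ cells, by 3.17-fold for LN and 3.14-fold for lung IL-4+ cells. In the gap, 6 regions placed by midpoint, R24 among them, summed to 60.8, 78 and 73 in lung IL-4+ libraries. The sums were 41.4 and 30.7 in LN IL-4+ and 22.9 and 28.3 in IFNγ+ libraries. No populations overlapped in the gap, and lung IL-4+ cells lay 1.97-fold above LN IL-4+ cells. From Il13 to beyond Il5, 18 regions summed to 168, 196 and 191 in lung IL-4+, 110 and 91.6 in LN IL-4+ and 106 and 104 in IFNγ+ libraries. There the lung IL-4+ libraries lay above all others, and the LN IL-4+ and IFNγ+ libraries overlapped. These sums are a description and were not tested.

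Of the 13 regions called in at least 1 comparison, R10, R17 and R39 were called in 2, and 29 regions were called in none. Within the classes of library spread, the 25 differences that could be formed for the called regions had sizes of 1.49 to 2.66. The libraries of the populations compared did not overlap at any called region, so these differences had to share the direction of the call. The calls depended on single libraries, at the locus and over all regions. Higher in lung IL-4+ than IFNγ+ cells were 123 of all regions, and 262, 0 and 5 without lung IL-4+ replicate 1, 2 and 3. Higher in lung than LN IL-4+ cells were 1191 of all regions, and 926, 250 and 816 in the same order. The 3 calls between the lung populations fell to 0 without lung IL-4+ replicate 2 or 3 or without either IFNγ+ library, and rose to 7 without lung replicate 1 and to 5 or 6 when the first or second LN library was left out. The 9 calls between lung and LN IL-4+ cells fell to 2 without lung replicate 2, to 3 without LN replicate 1, to 5 without lung replicate 3 and to 5 or 4 without IFNγ+ replicate 1 or 2, which enter only through the shared spread. Between LN IL-4+ and IFNγ+ cells, the 3 and 1 calls fell to 0 without either IFNγ+ library, the 3 fell to 1 without LN replicate 1, and the 1 rose to 2 without either LN library.

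The regulators of the locus were followed at 26 genes, from GATA3, STAT6 and MAF, which drive Th2 genes, to the chromatin organiser SATB1 and to RUNX3 and T-bet, which silence Il4 in Th1 cells, counting regions within 10 kb of each gene. Of 624 regions, 0 were called in either direction between lung IL-4+ and IFNγ+ cells, against 0.108% of all regions higher in lung IL-4+ and 0.387% higher in IFNγ+ cells. Between lung and LN IL-4+ cells, 10 were called higher in the lung (1.6%, against 1.05% of all regions), at Rbpj (5), Runx3 (3), Nfatc2 (1) and Tbx21 (1), and 0 in the LN (against 0.695% of all regions). The largest was at Runx3, with 2.68 ± 0.32 (adjusted p = 0.00413, limma). Between LN IL-4+ and IFNγ+ cells, 4 were higher in LN IL-4+ cells (0.641%, against 0.862%), 1 each at Stat5a, Stat5b, Yy1 and Bcl6, the last a regulator of T follicular helper cells, and 9 in IFNγ+ cells (1.44%, against 2.17%), at Rbpj (3), Tbx21 (3), Runx3 (2) and Gata3 (1). At Gata3 this was 1 of 26 regions, with 1.98 ± 0.44 (adjusted p = 0.0341, limma). The most open promoter region of Gata3 went the other way without being called. Its density in every IL-4+ library, from 42.2 up, lay above the 35.1 and 37.6 of IFNγ+ cells. Neighbouring genes share regions, which were counted for each.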

How the data were processed

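ATAC-seq libraries of sorted CD4+ T cells were analysed from the authors' table of all regions, with every one of its 7 columns used. Per the study's methods, adapters were trimmed with skewer, reads were mapped to GRCm38/mm10 with Bowtie2 2.3.2, duplicates were marked and mitochondrial, low-quality and blacklisted reads removed. Summits were called in each replicate with MACS2 2.1.1 and regions around them were merged between replicates, so a wide region can hold several summits. Insertions were counted per region and normalized with voom in limma 3.38.3 under R 3.5.1. The values the authors deposited are log2 normalized insertions per kilobase. Their sorted values, taken per region, nearly coincide between libraries, which means that they are also quantile-normalized. A difference in total accessibility between libraries is therefore removed, and a value is relative to the library's other regions. Insertions were rebuilt from ties among the deposited values as a lower bound. Depth is known only as these bounds.

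Here limma 3.58.1 in R 4.3.3 was run on the whole deposited log2 table of 113820 regions, with each population as a term, no pseudocount and no filter, so that all 42 regions of the locus were tested. The moderated test (eBayes) used a trended prior, and p-values were adjusted by Benjamini-Hochberg over the table for each of 3 contrasts. A call needed an adjusted p under 0.05 and a fold of at least 3. The procedure was tested on simulated data. Sums added density times length over regions, with a region placed by its midpoint. Genes, exons and promoter sequences came from RefSeq GRCm38.p6, and promoters within 1 kb of a start from GENCODE M21, the same build as the table. RefSeq's promoter table was matched for 4 of the 5 genes, all but Rad50. Motifs were searched as letters on both strands with Python 3.11.15.

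The regions, lists and tests were chosen with earlier results of these data known. The text names every called region, regions at the promoters of the 5 genes and regions of Il4, Il13 and the 3′ part of Rad50, and gives the others by range or sum. R6, R11, R12, R41 and R42 were named after their values were seen. p-values measure the spread between mice of 1 experiment. Alternatives were other pseudocounts, filters, thresholds and scalings, fits of 2 populations, a replicate block, the spread class as a covariate, array weights, voom on rebuilt insertions and each library left out.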

Additional observations from a re-analysis of the deposited data

How the results depend on the processing

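For all 16 calls at the locus the direction was the same under every alternative. The libraries compared did not overlap at these regions, so leaving out a library, a filter or a pseudocount could not reverse it. Single calls held in differing numbers of 16 alternative fits. Between lung and LN IL-4+ cells, R39 was called in 14, R26 and R31 in 13, R40 in 12 and R24 in 10. R38 was called in 8 of them, R36 in 7, R32 in 5 and R25 in 4. Between lung IL-4+ and IFNγ+ cells, R10 was called in 11, R17 in 10 and R22 in 9. Between LN IL-4+ and IFNγ+ cells, R18 and R39 were called in 12, R17 in 11 and R10 in 9. The counts of calls moved. Higher in lung IL-4+ than IFNγ+ cells were 3 regions (123 of all 113820), and 6 in a fit of these 2 populations only (294 of all). The count was 15 with array weights (3121 of all) and 5 with voom on rebuilt insertions (547 of all). It was 5 with a fold of at least 2 or no fold limit. With each library left out the count ran from 0 to 7. Higher in lung than LN IL-4+ cells were 9 regions, and 5 with a pseudocount of 1, 4 in a fit of 2 populations, 2 with voom on rebuilt insertions and 2 to 7 with each library left out. Higher in LN IL-4+ than IFNγ+ cells were 3, and 1 in a fit of 2 populations and 0 to 4 with each library left out. Higher in IFNγ+ than LN IL-4+ cells was 1, and 2 with the spread class as covariate, with a fold of at least 2 or with no fold limit, 0 with voom on rebuilt insertions and 0 to 2 with each library left out. The 2 other directions, higher in IFNγ+ than lung IL-4+ and higher in LN than lung IL-4+ cells, gave 0 calls under every alternative. Over all 113820 regions the counts moved too. Higher in lung than LN IL-4+ cells were 1191, and 729 with a pseudocount of 1. The same count was 639 in a fit of 2 populations and 751 with voom on rebuilt insertions. Higher in LN IL-4+ than IFNγ+ cells were 981, and 733 in a fit of 2 populations. Higher in IFNγ+ than LN IL-4+ cells were 2469, and 3241 with the spread class as covariate and 2218 with voom on rebuilt insertions. The causes were not tested.

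The replicate numbers are not stated to pair mice, and IFNγ+ and IL-4+ libraries came from different reporter mice. The deviations of same-numbered libraries from their population means had correlations of -0.542 to 0.057. In a population of 2 libraries these deviations mirror each other, so the correlations cannot settle pairing. Lung IL-4+ replicate 3 has no same-numbered library, so it adds no comparison within a block. With the replicate block, 0 regions of the locus were called in each direction of the 3 comparisons, and among all regions 88 were called higher in LN IL-4+ and 468 in IFNγ+ cells, with 0 in the other comparisons.

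Voom on rebuilt insertions, which scales by library totals, shifted the median of all regions by 0.43 between lung IL-4+ and IFNγ+ cells, 0.09 between lung and LN IL-4+ cells and 0.25 between LN IL-4+ and IFNγ+ cells, and the values under it are to be read against those shifts. The log2 difference of the locus sum was 1.05 between lung IL-4+ and IFNγ+ cells, 1.20 as a mean over regions and 1.23 from the end of Kif3a to the end of Il5. Between lung and LN IL-4+ cells it was 0.49, and 0.79 as a mean over regions. With each library left out these differences ran from 0.99 to 1.16 and from 0.30 to 0.68, and that between LN IL-4+ and IFNγ+ cells, 0.56, from 0.37 to 0.75.

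Depth limits the regions with few insertions, such as R35 between Rad50 and Il5, where IFNγ+ replicate 1 had 2 rebuilt insertions and the other libraries 15 to 103. At Il4, the reporter allele cannot be told apart from the population when IL-4+ and IFNγ+ cells are compared.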

Other observations

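As a description over the 7 libraries, promoter regions elsewhere in the genome were ranked by how closely their log2 density followed the mean of the 22 regions from the end of Kif3a to the middle of Rad50. That mean was 2.59 and 2.31 in LN IL-4+, 2.83, 3.23 and 3.36 in lung IL-4+ and 1.54 and 1.91 in IFNγ+ libraries. Of 20461 promoter regions that reached a density of 5 on average in any population, those of Rack1 (r = 0.989), of Erp29 and Tmem116, which share 1 region (r = 0.988), of Akap11 (r = 0.985) and of Ell2 (r = 0.981) were most alike. The promoter region of Rack1 ran from 1.32 and 1.5 in IFNγ+ to 2.43 in lung IL-4+ libraries, and 48 promoter regions had an r of at least 0.95. The libraries share 1 normalization, and 7 points give no measure of how rare such values are.

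The stretch upstream of Kif3a, which runs through the neighbouring gene Septin8, held 4 regions, R1 to R4. Their summed insertions were 25.4 and 14.3 in LN IL-4+, 21.7, 22.6 and 25.2 in lung IL-4+ and 12.2 and 13.4 in IFNγ+ libraries. In Kif3a itself, R6 in intron 8 was 2.68, 2.79 and 3.11 in lung IL-4+, 2.93 and 2.46 in LN IL-4+ and 1.19 and 1.5 in IFNγ+ libraries, and neither of its differences from IFNγ+ cells, 1.51 ± 0.33 (adjusted p = 0.0768, limma) and 1.35 ± 0.36 (adjusted p = 0.0664, limma), passed the test.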
